A study of Mus musculus with 12 samples.

Results

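The Wnt signalling genes of 2 mouse mesenchymal lines were described across 12 Affymetrix arrays: the secreted Wnt ligands, the R-spondins, the Frizzled and Lrp receptors, the secreted antagonists, and the intracellular and nuclear factors that carry the signal. Members were chosen by gene symbol, as probe sets with 1 symbol that is Wnt, Fzd, Sfrp, Dkk, Rspo or Frat followed by a number, or Frzb, Wif1, Lrp5, Lrp6, Axin1, Axin2, Ctnnb1, Tcf7, Tcf7l1, Tcf7l2 or Lef1. This gave 54 genes of 20670 on the array, with 102 probe sets. Each gene was read from its probe set with the highest mean signal. The 54 members were 19 Wnt ligands, 4 R-spondins, 12 receptors, 10 secreted antagonists, 5 intracellular factors and 4 nuclear factors.

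The lines were 10T1/2 (10Thalf in the labels), mesenchymal stem cells that can form fat, cartilage, bone or muscle, and 3T3-L1, preadipocytes that can become fat cells. The 10T1/2 cells received a Setdb1 siRNA (si-Setdb1) or a negative control siRNA (si-Ctr), and were harvested after 48 hr in a differentiation medium, or before it, at 0 hr. The medium held dexamethasone at 0.25 µM, which acts on the glucocorticoid receptor. The 3T3-L1 cells of experiment A received si-Setdb1 or si-Ctr and were harvested after 36 hr in that medium or at 0 hr. The 3T3-L1 cells of experiment B received siRNAs against Setdb1, Mbd1 or Mcaf1 (now named Atf7ip), or si-Ctr, and were all harvested at 0 hr per their titles, although another label of the si-Mbd1 and si-Mcaf1 arrays says 36 hr. All cells were grown with serum and were transfected at seeding and again on the day the differentiation medium was added. Of the 10 groups, 8 held 1 array, and the si-Setdb1 and si-Ctr groups of 3T3-L1 at 0 hr held 2 arrays, A and B. Apart from these letters, no label tells whether the arrays of a group are from separate cultures. Only the test within 3T3-L1 at 0 hr rests on the spread between arrays of a group, which may be technical in part. Tests over pairs of arrays measure how the effect varied between pairs that differ in line, time, experiment or siRNA. In the test between the lines, arrays of different siRNA and time served as replicates of a line. In such bulk RNA, fewer cells of a type and less RNA per cell cannot be told apart.

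Wnt ligands are secreted lipid-modified proteins that bind Frizzled receptors together with the co-receptors Lrp5 and Lrp6. In the canonical branch this binding stops the Axin complex from destroying beta-catenin (Ctnnb1), which then acts in the nucleus with Tcf and Lef factors, while ligands such as Wnt5a act mostly through other branches. R-spondins strengthen the signal by keeping receptors at the cell surface, and secreted Frizzled-related proteins (Sfrp, Frzb), Dickkopf proteins (Dkk) and Wif1 weaken it outside the cell. In preadipocytes canonical Wnt signalling is known to hold back fat cell formation, and in mesenchymal cells it steers the choice between bone, cartilage and fat.

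The proximal promoters of 4 members are printed because their signals carry the differences described below: Frzb, which was lower on the 10T1/2 arrays labelled si-Setdb1; Fzd9 and Wnt4, which differed between the lines; and Fzd1, which fell after dexamethasone medium. Each window runs from 250 bases before to 50 bases after the start of the RefSeq gene (300 bases, GRCm38.p6), 5′ to 3′ on the gene's strand, with every CG dinucleotide, the site of DNA methylation, in capitals. They lie at chr2:80447347-80447646 on the minus strand (Frzb), chr5:135250998-135251297 minus (Fzd9), chr4:137277385-137277684 plus (Wnt4) and chr5:4758167-4758466 minus (Fzd1).
Frzb: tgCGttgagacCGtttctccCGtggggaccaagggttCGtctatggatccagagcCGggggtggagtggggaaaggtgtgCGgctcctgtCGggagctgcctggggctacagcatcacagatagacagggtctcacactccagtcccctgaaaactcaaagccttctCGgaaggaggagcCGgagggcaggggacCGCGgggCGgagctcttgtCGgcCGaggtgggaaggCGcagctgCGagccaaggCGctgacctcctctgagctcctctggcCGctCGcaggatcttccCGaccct
Fzd9: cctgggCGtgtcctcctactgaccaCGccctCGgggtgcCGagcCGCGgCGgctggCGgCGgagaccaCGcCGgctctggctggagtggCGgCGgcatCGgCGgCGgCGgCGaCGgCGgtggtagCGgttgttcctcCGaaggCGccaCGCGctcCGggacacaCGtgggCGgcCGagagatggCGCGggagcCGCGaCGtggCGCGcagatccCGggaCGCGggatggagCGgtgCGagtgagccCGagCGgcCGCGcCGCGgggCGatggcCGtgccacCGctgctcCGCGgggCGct
Wnt4: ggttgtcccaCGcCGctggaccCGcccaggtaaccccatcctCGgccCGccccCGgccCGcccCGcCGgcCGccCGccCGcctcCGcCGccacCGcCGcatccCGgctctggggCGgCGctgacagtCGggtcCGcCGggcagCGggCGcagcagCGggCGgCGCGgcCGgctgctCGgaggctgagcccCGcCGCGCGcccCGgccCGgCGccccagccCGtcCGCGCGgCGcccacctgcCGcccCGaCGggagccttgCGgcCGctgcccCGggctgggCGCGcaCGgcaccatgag
Fzd1: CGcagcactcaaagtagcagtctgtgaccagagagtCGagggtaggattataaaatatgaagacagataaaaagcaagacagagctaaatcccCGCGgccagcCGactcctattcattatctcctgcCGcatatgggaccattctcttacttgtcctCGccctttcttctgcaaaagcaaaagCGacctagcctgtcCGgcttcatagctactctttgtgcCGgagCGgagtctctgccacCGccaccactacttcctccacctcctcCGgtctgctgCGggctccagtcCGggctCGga
Fzd9 had 53 and Wnt4 51 CG dinucleotides in this window, and only 0.451% and 0.715% of the 32851 RefSeq windows held as many. Frzb had 20 and Fzd1 had 16, counts reached by 26.5% and 33.0% of windows. Windows were counted for 37 of the 54 members (46 windows), with a median of 26.5 CG against 7 over all windows. The windows of a single chromosome were left out for the members but kept in the figures over all windows. A short element bound by the glucocorticoid receptor, TGTTCT or its reverse complement AGAACA, occurred in 8 member windows (17.4%), against 19.0% of all windows, and in none of the 4 printed. The Tcf and Lef motif CTTTGAT or ATCAAAG occurred in 2 member windows (4.35%), against 3.73% of all, and also in none of the 4. These are descriptions of letters in a short window and say nothing of binding.

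Some facts of the whole series bear on what follows. Values were tested as log2 of the signal plus 0.8 after quantile normalisation, with limma, over the 12402 genes whose mean log2 value over the 12 arrays passed the 40th percentile (equal to a signal of about 7.67), at an adjusted p of 0.05. Differences below are on that log2 scale with their standard error (SE), and signals are the deposited intensities, which can be set against each other only within a gene. The median signal was 14.9 to 18.0 on the 4 arrays of experiment B and 11.2 to 12.1 on the other 8. The brightest Setdb1 probe set read 143 to 209 on the 5 arrays labelled si-Setdb1, against 120.5 to 179.8 on the paired si-Ctr arrays. It was lower with that label in 3T3-L1 at 36 hr (154.7, against 179.8) and at 0 hr B (143.0, against 144.8). In the other pairs it was higher, so it does not bear out the label. Of 2 dim Setdb1 probe sets, 1 read 7.3 to 22.1, against 6.0 to 11.7, and was higher in every pair. The other dim probe set read 0.4 to 9.9, against 1.6 to 24.4, and was lower in every pair. Directions are therefore given for "the arrays labelled si-Setdb1". The si-Mbd1 array had an Mbd1 signal of 144, against 306 on si-Ctr. The array labelled si-Mcaf1 had an Atf7ip signal of 154.5, against 159.6, which does not bear out its label either. The dimmer Atf7ip probe sets read 94.8, against 109.1, and 11.8, against 5.8. Dlk1, a preadipocyte marker, read 25.5 to 98.4 in 10T1/2, against 2725 to 7602 in 3T3-L1. The summed signal of 10 preadipocyte and fibroblast markers, Dlk1 included, was 28226 to 31835 in 10T1/2, against 34379 to 43502 in 3T3-L1. Of the 9 such markers tested, 4 were called lower in 10T1/2 and 0 higher, where 15.5% of all genes were called lower. Pdgfrb, Vim and Ly6a were above 0 without passing (0.25, 0.05 and 0.11). Summed over 5 markers each, macrophage and leukocyte, epithelial and endothelial genes read at most 177.6, 70.2 and 67.6 on any array.

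Of the 54 members, 31 passed the filter on low values and 23 did not. Those that passed were 8 of 19 Wnt ligands (Wnt4, Wnt5a, Wnt5b, Wnt6, Wnt7a, Wnt7b, Wnt9a and Wnt11), 2 of 4 R-spondins (Rspo2 and Rspo3), 10 of 12 receptors, 5 of 10 antagonists (Sfrp1, Sfrp2, Sfrp4, Sfrp5 and Dkk3), 3 of 5 intracellular factors and 3 of 4 nuclear factors. The ligands under the filter, among them Wnt1, Wnt3, Wnt3a, Wnt10a and Wnt10b, of which Wnt10b is known as an inhibitor of fat cell formation, read at most 14 on any array. Axin2, whose transcription is a common readout of canonical signalling, was also under it, at 1.5 to 13.5. Frzb and Dkk2 missed the filter because they were dim in 3T3-L1, although they read up to 265.1 and 69.9 in 10T1/2.

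**Figure D1:**
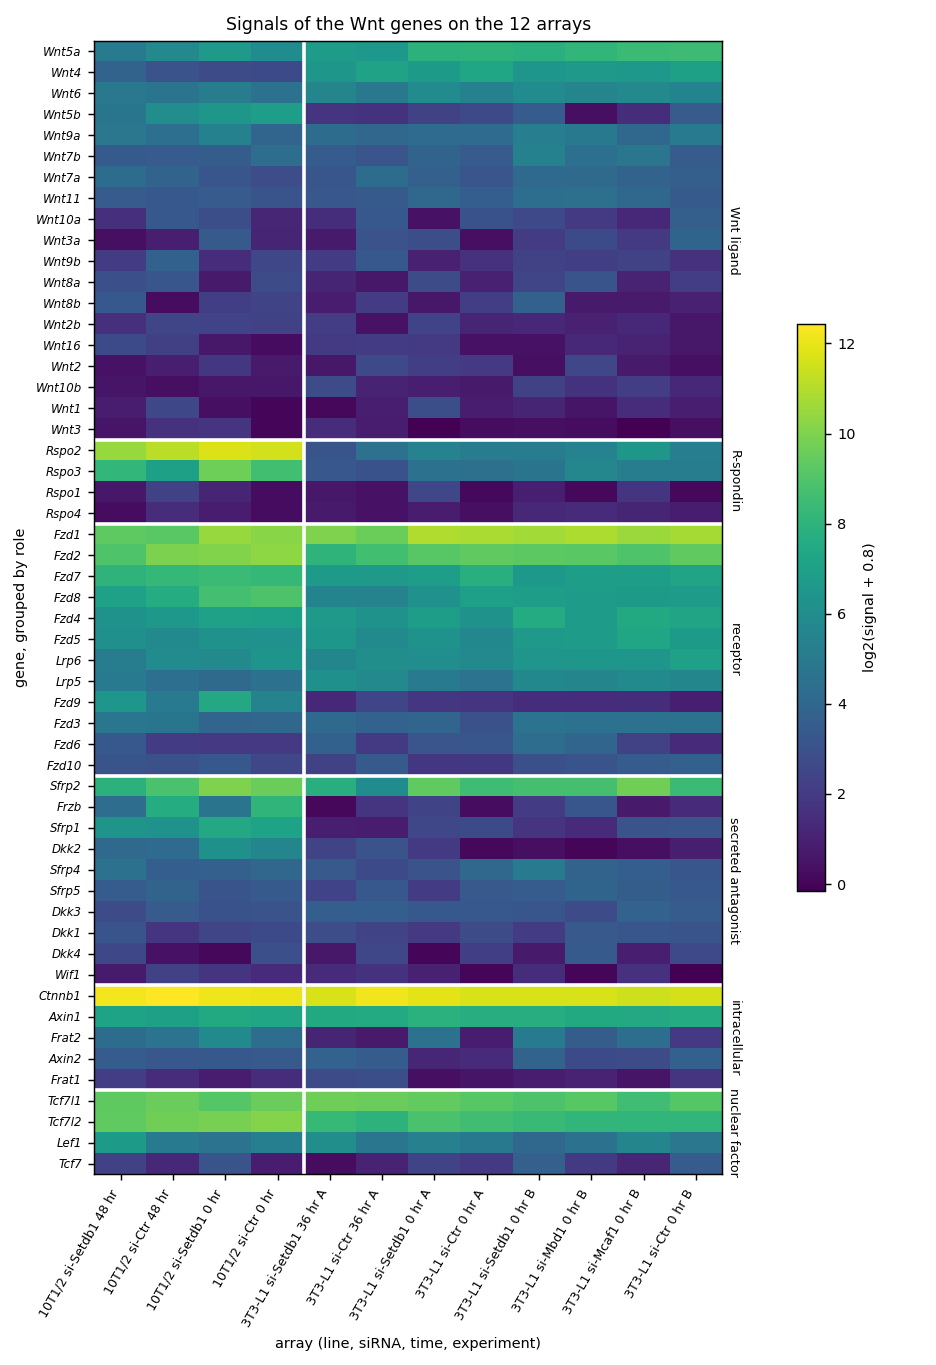
Colour shows log2(signal + 0.8) for the 54 members (rows, grouped by role) on the 12 arrays (columns, 10T1/2 left of the white line and 3T3-L1 right of it). Rspo2, Rspo3, Fzd9, Sfrp1 and Frzb are bright mainly in 10T1/2 and Wnt4 in 3T3-L1, while Ctnnb1 is bright on every array. Colours can be compared along a row, not between rows.

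Ctnnb1, beta-catenin itself, ranged from 2793 to 5507 over the 12 arrays, and Tcf7l1, a nuclear partner of beta-catenin that mostly represses its targets, from 375 to 797.5. The co-receptor Lrp6 ranged from 34.1 to 131.5, and Fzd4 and Fzd5 from 77.6 to 194.4 and from 51.2 to 152.4. Rspo2 ranged from 8.0 to 3452 and Wnt5b from 0.5 to 115.7, and the lowest signals of both were in 3T3-L1.

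The comparison of the lines asked which members differ between mesenchymal stem cells and preadipocytes, over 4 and 6 arrays with siRNA and medium as terms of the model. Both R-spondins that passed the filter were higher in 10T1/2: Rspo2 by 6.58 ± 0.26 (SE; 95.7-fold, adjusted p = 1.73e-06) and Rspo3 by 4.42 ± 0.24 (21.4-fold, adjusted p = 8.87e-06). Rspo2 read 1418 (48 hr) and 3452 (0 hr) in 10T1/2 with si-Setdb1 and 2241 and 3049 with si-Ctr, against a lowest, median and highest signal of 8.0, 34.0 and 42.1 on the 6 3T3-L1 arrays. Rspo3 read 284.3 and 811.6 with si-Setdb1 and 126.3 and 387.1 with si-Ctr in 10T1/2, against 7.3, 22.1 and 34.7 in 3T3-L1. For both genes every 10T1/2 array lay above every 3T3-L1 array on the brightest probe set. The second, dimmer Rspo2 probe set read 13.5 to 20.7 in 10T1/2, against 5.5 to 25.2 in 3T3-L1. The fitted Rspo2 difference ran from 3.46 to 6.83 over alternative settings.

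Among the ligands, Wnt5b was higher and Wnt4, Wnt5a and Wnt6 were lower in 10T1/2. Wnt5b, a ligand of the non-canonical branch, read 25.8, 91.3, 64.1 and 115.7 in 10T1/2 (si-Setdb1 at 48 and 0 hr, then si-Ctr at 48 and 0 hr, an order kept below), against 2.4, 4.75 and 10.4 (lowest, median, highest) in 3T3-L1, a difference of 3.76 ± 0.21 (adjusted p = 9.48e-06). Wnt4 read 13.7, 5.8, 7.5 and 5.5 in 10T1/2, against 87.6, 114.85 and 154.2 in 3T3-L1, a difference of -3.64 ± 0.24 (12.5-fold lower, adjusted p = 2.32e-05). For both ligands the lines did not overlap. Wnt5a, a ligand that acts mostly outside the canonical branch, read 31 to 101.6 in 10T1/2, against 94 to 352.1 in 3T3-L1 (-1.46 ± 0.23, adjusted p = 0.00182), with a small overlap. Wnt6 differed by -0.53 ± 0.12 (adjusted p = 0.00971, but 0.0509 without the 10T1/2 si-Ctr array at 0 hr and 0.103 with array medians subtracted), and the other 4 ligands tested did not pass.

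Of the receptors, Fzd9, Fzd8, Fzd7 and Fzd2 were higher and Fzd1 and Lrp5 lower in 10T1/2. Fzd9 read 85.8, 175.2, 31.3 and 43.3 in 10T1/2, against 1.1, 2.35 and 4.8 in 3T3-L1, a difference of 4.54 ± 0.52 (adjusted p = 0.000398). Fzd8 read 133.3, 412.4, 198.3 and 482.6, against 43.0, 91.65 and 124.3 (1.97 ± 0.15, adjusted p = 5.3e-05). Both were higher on every 10T1/2 array. Fzd7 averaged 301 ± 34.0 in 10T1/2 (SD, n = 4) and 129.8 ± 45.4 in 3T3-L1 (SD, n = 6), and Fzd2 946 ± 319 and 522 ± 159 in the same order, differences of 1.31 and 0.94 (adjusted p = 0.00184 and 0.00167). Fzd1 averaged 956 ± 412 in 10T1/2 and 1479 ± 473 in 3T3-L1, a difference of -0.54 ± 0.10 (adjusted p = 0.00481, but 0.356 with array medians subtracted and 0.0634 with probe sets averaged). The co-receptor Lrp5 differed by -0.87 ± 0.20 (adjusted p = 0.0115, but 0.0517 without the 10T1/2 array labelled si-Setdb1 at 0 hr). Receptors of 1 family thus moved both ways between the lines.

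The antagonists that differed were all higher in 10T1/2. Sfrp1 read 80.3, 172.6, 76.4 and 138.8 in 10T1/2, against 1.0, 3.8 and 8.2 in 3T3-L1, with no overlap. The fitted difference was 5.09 ± 0.31 (adjusted p = 1.3e-05), and ran from 2.82 to 5.33 over alternative settings, with the lowest at a pseudocount of 16. The 3T3-L1 signals were near or under the filter signal. Sfrp2 averaged 619 ± 346 in 10T1/2 and 344 ± 200 in 3T3-L1 (1.2 ± 0.32, adjusted p = 0.0223), and its ranges overlapped. It missed the threshold without the 10T1/2 array at 0 hr with si-Setdb1 or with si-Ctr (adjusted p = 0.0553 and 0.0596), with no filter (0.0551), and without experiment B with matched pairs as a block (0.111). Sfrp5, which is dim, differed by 0.65 ± 0.19 (adjusted p = 0.0333), a call kept in only 4 of 18 alternative settings. Frzb and Dkk2, below the filter over all arrays, read 19.6 to 265.1 and 16.7 to 69.9 in 10T1/2, against 0.3 to 4.5 and 0.3 to 7.5 in 3T3-L1. With no filter their line differences were 5.03 ± 0.79 and 3.55 ± 0.77 (adjusted p = 0.00511 and 0.0195).

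Inside the cell, Tcf7l2, a nuclear partner of beta-catenin, read 661.6 to 1102 in 10T1/2, against 252.8 to 448.5 in 3T3-L1 (1.42 ± 0.16, adjusted p = 0.000345). Frat2, which inhibits the kinase Gsk3, differed by 2.77 ± 0.61 (adjusted p = 0.00936). Ctnnb1 (0.34 ± 0.10) and the scaffold Axin1 (-0.35 ± 0.10) moved by small amounts (adjusted p = 0.0338 and 0.0269). Both calls were lost without any 1 of the 4 10T1/2 arrays, among others, and in all in 11 and 9 of 19 alternative settings.

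Over all members, 13 were higher and 6 lower in 10T1/2, 19 of the 31 tested. Of the 12402 genes tested, 32.3% passed in this comparison, 16.8% higher and 15.5% lower. The median size of the difference was 0.58 over the members and 0.34 over all genes. Wnt5b, Frat2, Fzd9, Sfrp1 and Sfrp5 averaged under the filter in 3T3-L1 on the log2 scale and passed it through 10T1/2, so their count is no support for a difference of the group as a whole. The sizes of their differences depend on the pseudocount: with 16 in place of 0.8, Wnt5b differed by 2.12, Frat2 by 1.08, Fzd9 by 2.3 and Sfrp1 by 2.82. With array medians subtracted in place of quantile normalisation, 11 members were higher and 3 lower, while the median over all genes moved to 0.15 from 0.03. The chondrocyte markers Col2a1, Col9a1 and Comp also were higher in 10T1/2: the summed signal of 5 such markers was 412 to 4044 in 10T1/2, against 37.4 to 55.9 in 3T3-L1, and its part in these differences was not tested. Line and experiment cannot be told apart.

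**Figure D2:**
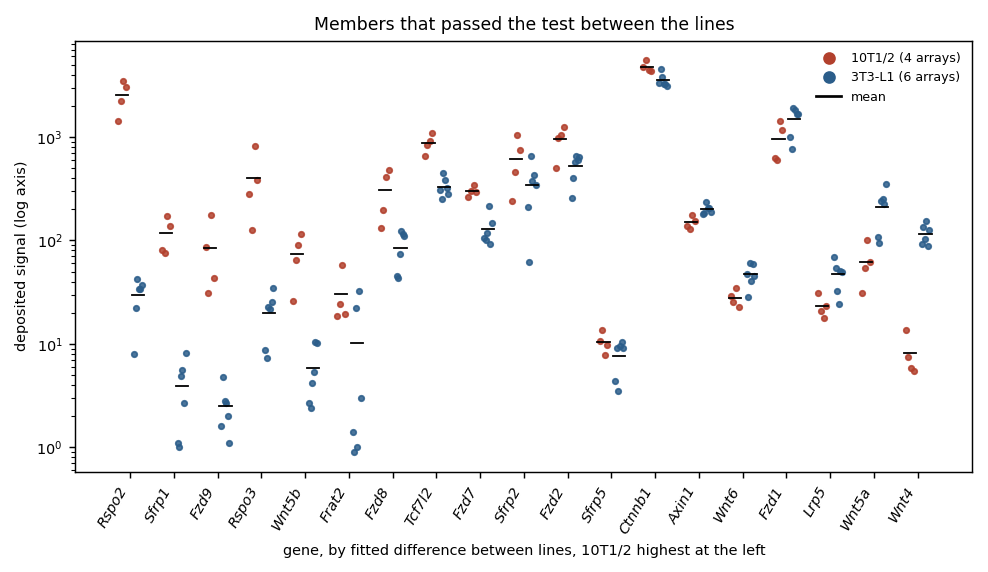
Each point is the deposited signal of an array on a log axis, for the 19 members that passed between the lines, with 10T1/2 (4 arrays) left of 3T3-L1 (6 arrays) and a bar at the mean. The points of Rspo2, Sfrp1, Fzd9, Rspo3, Wnt5b, Fzd8, Tcf7l2 and Fzd7 do not overlap and are higher in 10T1/2, and those of Axin1 and Wnt4 do not overlap and are lower.

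The next comparison asked what differed after the medium with dexamethasone, in 4 pairs that each share a line and an siRNA. Rspo3 and Fzd1 fell, and no member that rose passed the test. Rspo3 read 284.3 after 48 hr, against 811.6 at 0 hr, in 10T1/2 labelled si-Setdb1 and 126.3, against 387.1, with si-Ctr. In 3T3-L1 it read 8.8 after 36 hr, against 22.6, on the arrays labelled si-Setdb1 and 7.3, against 21.6, with si-Ctr. The 4 falls were between 2.57-fold and 3.06-fold, and the fitted difference was -1.42 ± 0.09 (adjusted p = 0.0154). All 4 pairs were lower after the medium. The 3T3-L1 signals after it were near the filter signal, so the sizes of those 2 falls are uncertain and are not compared with the falls in 10T1/2.

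Fzd1, a receptor, read 625.9 after the medium, against 1430 at 0 hr, in 10T1/2 labelled si-Setdb1 and 596.2, against 1171, with si-Ctr. It read 1010, against 1924, in 3T3-L1 labelled si-Setdb1 and 768.1, against 1826, with si-Ctr. Every pair was lower, by 1.91-fold to 2.38-fold, and the fitted difference was -1.09 ± 0.11 (adjusted p = 0.0374). Its second, dimmer probe set was lower in all 4 pairs too, by a mean of 0.87 on the log2 scale.

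Other members went the same way in every pair without passing. The antagonist Sfrp2 read 241.6, 453.9, 212.5 and 61.4 after the medium, against 1036, 743.8, 652.9 and 372.5 at 0 hr in the same pairs (10T1/2 si-Setdb1 and si-Ctr, then 3T3-L1 si-Setdb1 and si-Ctr), a difference of -1.68 ± 0.30 (adjusted p = 0.0885). Sfrp1 differed by -1.34 ± 0.23 (adjusted p = 0.0841) and Fzd8 by -1.19 ± 0.17 (adjusted p = 0.0712). Fzd8 read 133.3, 198.3, 45.2 and 43.0 after the medium, against 412.4, 482.6, 73.9 and 124.3 at 0 hr. Wnt5a (-1.03), Wnt5b (-1.01), Rspo2 (-1.13), Fzd2 (-0.80), Tcf7l2 (-0.48), Wnt7b (-0.47) and Axin1 (-0.24) were lower in all 4 pairs, and Fzd3 was higher in all 4 (0.60, but -0.0479 with its 6 probe sets averaged), with adjusted p between 0.096 and 0.23. The dimmer Rspo2 probe set rose in 3T3-L1 si-Setdb1 (20.7, against 5.5) and in 10T1/2 si-Setdb1 and si-Ctr (19.1 and 20.7, against 13.5 and 17.1). That of Axin1 was higher in 2 of 4 pairs. Dimmer probe sets of Wnt5a, Tcf7l2 and Wnt7b also did not fall in every pair. Sfrp1 fitted a line interaction of 0.93 ± 0.21 (10T1/2 minus 3T3-L1, adjusted p = 0.318), where its 3T3-L1 signals were at 8.2 or below. The sign of that value turned with a pseudocount of 16 (-0.41) and with probe sets averaged (-0.71).

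Members called after the medium were 2 of 31, both lower. Of all genes tested, 0.766% passed and 0.266% passed as lower, and the medians of the differences were -0.27 over the members and -0.01 over all genes. The difference of this response between the lines called 0% of genes (0 of 12402 with limma at the adjusted threshold and 1236 at an unadjusted p of 0.05), members included. Both calls were lost when any 1 of the 4 pairs was left out (adjusted p of 0.0677 to 0.125 for Rspo3 and 0.0993 to 0.158 for Fzd1), when probe sets were averaged, or with no filter. With no block for the pair, Fzd1 and Sfrp1 passed and Rspo3 did not (adjusted p = 0.0155, 0.0487 and 0.102). Dexamethasone, the other components of the medium and time in culture cannot be told apart. The 10 glucocorticoid-induced genes were all above 0, with 7 called higher, and the summed signal of 9 adipocyte markers was 2700 to 17812 after the medium, against 495.2 to 8486 at 0 hr; their part in the falls of Wnt genes was not tested.

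**Figure D3:**
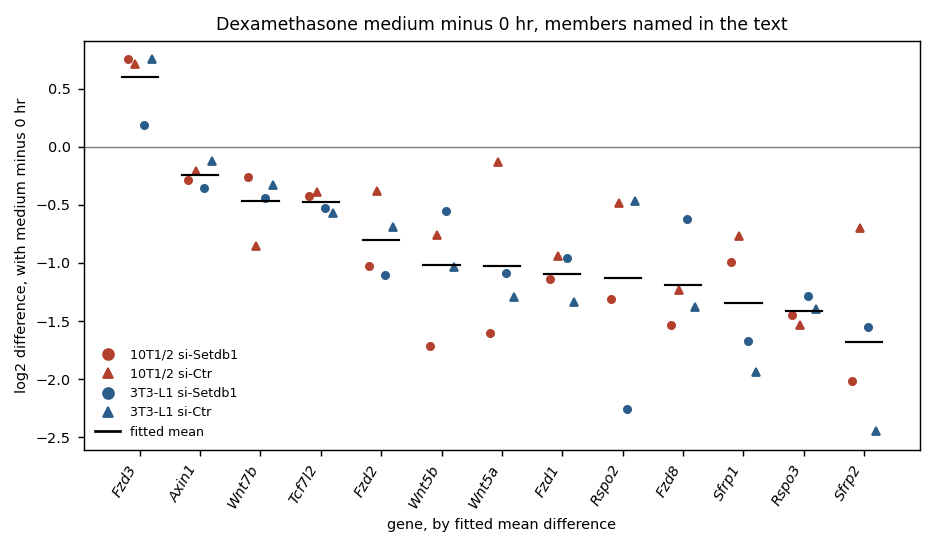
Points are log2 differences (medium with dexamethasone minus 0 hr) in the 4 pairs, coloured by line, for the 13 members described above, and bars are the fitted means. The points of Rspo3 lie within 1.28 to 1.54 below 0 in all 4 pairs, while those of Rspo2 and Sfrp2 are spread more widely.

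The 5 pairs of arrays labelled si-Setdb1 and si-Ctr showed no member past the threshold, in either direction. Over all genes 1.11% passed (56 higher and 82 lower, or 40.6% higher, and 26.4% higher with array medians subtracted), a count that became 0 genes without any 1 of the 5 pairs, and 5 of the 31 members had an unadjusted p under 0.05, against 22.3% of all genes. The ligand Wnt6 came closest. It read 29.0, 34.7, 47.1, 60 and 59.7 on the arrays labelled si-Setdb1 (10T1/2 at 48 and 0 hr, 3T3-L1 at 36 hr, 0 hr A and 0 hr B), against 25.3, 22.6, 28.5, 40.9 and 45.4 on their si-Ctr arrays. It was higher in 5 of 5 pairs, by 0.50 ± 0.10 (adjusted p = 0.0738), with a 95% interval of 0.25 to 0.75. The second, dimmer Wnt6 probe set read 1.2, 7.8, 11.1, 22.9 and 16.1, against 7.2, 0.8, 7.8, 9.4 and 13.3, in the same order. It was thus lower in 10T1/2 at 48 hr and higher in the other pairs.

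On their brightest probe sets, Sfrp5 and Fzd2 were lower in 5 of 5 pairs after normalisation, without passing. In deposited signals Sfrp5 was higher with the label si-Setdb1 in 3T3-L1 at 0 hr B (10.4, against 9.1). Fzd2, a receptor, read 502.4, 1044, 258.9, 577.7 and 604.0 on the arrays labelled si-Setdb1, against 978.1, 1260, 398.5, 648.2 and 647.3 with si-Ctr in the same pairs, a difference of -0.41 ± 0.14 (adjusted p = 0.164). Its pair differences were larger after the medium (-0.91 and -0.59) than at 0 hr (-0.26, -0.18 and -0.10), and the fitted difference between these was -0.57 ± 0.17 (adjusted p = 0.659). The other Fzd2 probe sets, with mean signals of 537.5 and 403.1, were each lower in 4 of 5 pairs. On the dimmer of them the 3T3-L1 pair at 36 hr was higher with the label si-Setdb1 (184.7, against 162.7). Sfrp5 differed by -0.61 ± 0.20 (adjusted p = 0.151), at signals of 3.5 to 14.4 on all arrays, and its second probe set was higher in 4 of 5 pairs (0.0214 with both averaged). The median difference over the members was 0.13, against 0.00 over all genes (0.0016). The 9 adipocyte markers summed to 1269 to 17812 on the arrays labelled si-Setdb1, against 495.2 to 4264 with si-Ctr, and their part in these values was not tested.

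**Figure D4:**
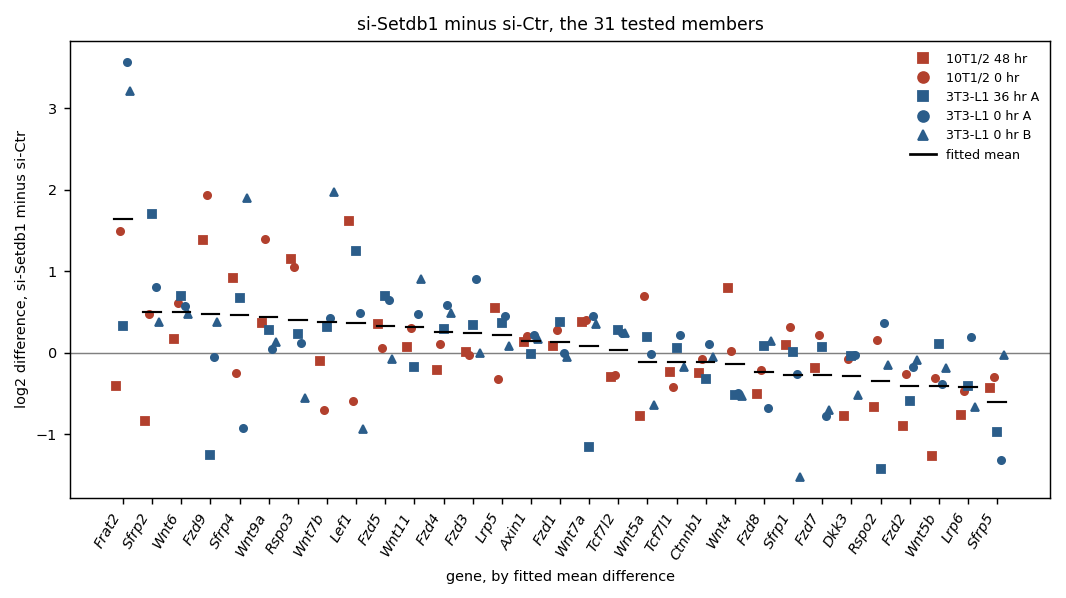
Points are log2 differences (labelled si-Setdb1 minus si-Ctr) in the 5 pairs for the 31 tested members, coloured by line, and bars are the fitted means. Wnt6 lies above 0 and Sfrp5 and Fzd2 lie below 0 in all 5 pairs, while for Frat2 the values at 0 hr in 3T3-L1 stand far above the rest.

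In 3T3-L1 at 0 hr alone (2 arrays against 2) no member passed, and 0.0161% of genes did (2 of 12402). Frat2 read 22.2 and 32.8 on the arrays labelled si-Setdb1, against 1.0 and 3.0 with si-Ctr, a fitted difference of 3.39 ± 0.25 (adjusted p = 0.219). The groups did not overlap. The si-Ctr signals were under the filter signal, and the size ran from 1.23 to 3.64 over alternative settings, with the lowest at a pseudocount of 16. With array medians subtracted it passed (adjusted p = 1.72e-06). At 36 hr Frat2 read 1.4, against 0.9, and in 10T1/2 18.6, against 24.3, at 48 hr and 58.0, against 19.4, at 0 hr. Wnt7b read 14.4 and 40.9, against 10.3 and 10.2 (1.19 ± 0.43, adjusted p = 0.908). In simulated data with 12402 genes and normal noise, this comparison recovered 1% of changes of 1 and 73% of changes of 2 on the log2 scale. The measured data need not match these shares.

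The pairs of 10T1/2 were also described alone. Frzb, a secreted antagonist known from cartilage, read 19.6 at 48 hr, against 195 with si-Ctr, and 25.4 at 0 hr, against 265.1. It was 9.95-fold and 10.4-fold lower, and its second probe set read 5.2, against 42.8, and 4.7, against 60.3. Frzb fell outside the filter and the naming rule, and was chosen after its values were seen. In 3T3-L1 it was at 0.3 to 4.5 on every array of these pairs, so nothing can be read from its differences there. With no filter the fitted difference between lines of the effect was -3.51 ± 1.19 (adjusted p = 0.72). The cartilage gene Col2a1 moved with it in 10T1/2: it read 274.5, against 2203, at 48 hr and 852.4, against 2797, at 0 hr. The 5 chondrocyte markers summed to 412 to 1105 on the 10T1/2 arrays labelled si-Setdb1, against 3375 to 4044 with si-Ctr. Their part in the lower Frzb signal was not tested.

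Fzd9 and Rspo3 went the other way in 10T1/2. Fzd9, a receptor, read 85.8, against 31.3, at 48 hr and 175.2, against 43.3, at 0 hr, which is 2.74-fold and 4.05-fold higher. Rspo3 was 2.25-fold higher at 48 hr and 2.10-fold higher at 0 hr, and within 0.73-fold to 1.21-fold in the 3T3-L1 pairs. Its second, dimmer probe set went the other way in 10T1/2: it read 2.7, against 7.1, at 48 hr and 9.7, against 12.1, at 0 hr. The effect differed between the lines by 1.97 ± 0.52 for Fzd9 and by 1.17 ± 0.28 for Rspo3 (10T1/2 minus 3T3-L1, adjusted p = 0.464 and 0.456), so neither difference passed. The Rspo3 value ran from 0.19 to 1.32 over alternative settings. With Fzd9 under the filter on every 3T3-L1 array, the size of its value cannot be read. The other terms did not pass either: Wnt4 (0.92), Tcf7l2 (-0.54) and Fzd4 (-0.51, but 0.31 with probe sets averaged), with adjusted p up to 0.583. By this interaction 0% of genes passed with limma (1036, or 8.35%, at an unadjusted p of 0.05), and 5 of 31 members were among those 1036.

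**Figure D5:**
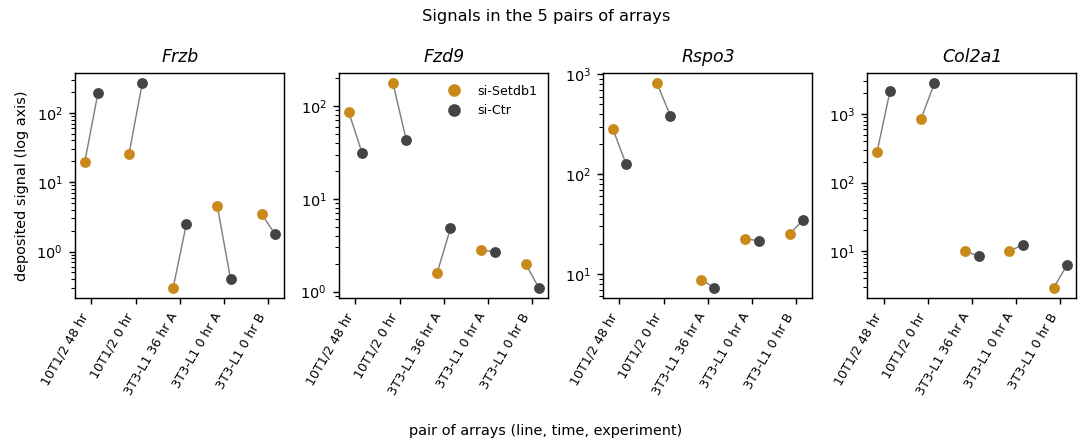
Points are deposited signals on log axes for the arrays labelled si-Setdb1 (left of each pair) and si-Ctr (right) in the 5 pairs. In both 10T1/2 pairs Frzb and the cartilage gene Col2a1 are lower and Fzd9 and Rspo3 higher with the label si-Setdb1, while in 3T3-L1 Frzb, Fzd9 and Col2a1 stay at 12.4 or below.

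The effect of the siRNA also was compared after the medium with that at 0 hr, and again 0% of genes passed (888, or 7.16%, at an unadjusted p of 0.05, 5 of them members). Lef1, a nuclear partner of beta-catenin, read 104.8, against 32.1, in 10T1/2 at 48 hr and 66.4, against 26.6, in 3T3-L1 at 36 hr. At 0 hr it read 23.7, against 38.0, in 10T1/2, and 39.9 and 16.3, against 29.4 and 27.5, in 3T3-L1. Both pairs after the medium thus had the higher signal with the label si-Setdb1. The second, dimmer Lef1 probe set also was higher there (11.7, against 5.8, and 14.4, against 7.9). Yet it was higher at 0 hr as well: 5.5, against 2.8, in 10T1/2, and 9.2 and 18.7, against 8.8 and 7.8, in 3T3-L1. On the brightest probe set the difference of effects was 1.78 ± 0.46 (adjusted p = 0.632). The same term was -2.80 for Frat2, -1.17 for Rspo2 and -0.61 for Wnt11, with adjusted p up to 0.693. The 5-pair comparisons share their si-Ctr arrays with the medium comparison.

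The arrays labelled si-Mbd1 and si-Mcaf1 were each set against the si-Ctr array of experiment B, with no replicate and no test, and a difference of at least 1 was taken as a call. On the si-Mbd1 array 5 of 31 members were past it, against 3.79% of all genes (57.4% of them higher, and 45.1% with the deposited scaling). Frat2 read 10.9, against 3.0, Wnt11 21.4, against 9.8, and Wnt7b 20.7, against 10.2. Sfrp1 read 1.8, against 8.2 (but its difference was 0.73 with probe sets averaged), and Wnt5b 0.5, against 10.2. All 5 lay at signals of 21.4 or below, and none was past the limit when 16 was added to the signals.

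On the array labelled si-Mcaf1 6 of 31 members were past the limit, against 4.46% of all genes. Rspo2 read 89.9, against 37.0 (1.32), and Sfrp2 827.8, against 341.3 (1.40). This Rspo2 probe set also exceeded its highest signal on the other 7 3T3-L1 arrays. The second, dimmer Rspo2 probe set read 17.5, against 17.9, and the Rspo2 difference was 0.58 at its lowest over alternative settings. Frat2 (2.41), Wnt7b (1.24, but -0.43 with probe sets averaged), Wnt5b (-1.97) and Wnt9a (-1.16) were at signals of 33.5 or below. Both lone comparisons share the si-Ctr array, whose Frat2, Wnt7b and Wnt5b signals enter both.

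Other genes of the pathway were counted in the same way. Of 64 listed components, 63 were on the array and 53 were tested. None passed in the 5-pair, medium or interaction comparisons. Between the lines 9 of the 53 were higher and 13 lower in 10T1/2, where 16.8% of all genes were higher and 15.5% lower. The median was -0.16, against 0.03 over all genes. The polarity gene Prickle1 differed by -4.23 ± 0.24, the glypican Gpc4 by -2.01 ± 0.15, the secreted Wnt deacylase Notum by 2.06 ± 0.42 and Dact1, a Dishevelled-binding protein, by 1.69 ± 0.25 (adjusted p up to 0.00648). Porcn, which attaches the lipid to Wnt ligands, differed by -1.10 ± 0.22 (adjusted p = 0.00549), and Ror2, a receptor of Wnt5a, by 1.46 ± 0.23 (adjusted p = 0.002).

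On the arrays labelled si-Setdb1 the component with the smallest p was Ptk7, a co-receptor of the polarity branch (0.95 ± 0.16, adjusted p = 0.0543). Ror1, a receptor of Wnt5a, read 44.0, 95.7, 44.5, 85.2 and 64.2, against 160.2, 157.4, 160.2, 138.3 and 140.9 with si-Ctr in the order of pairs used above. The groups did not overlap, and the difference of -1.19 ± 0.21 missed the threshold (adjusted p = 0.0601). Gpc6 differed by -0.98 ± 0.19 (adjusted p = 0.0704).

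Of 25 listed targets of Wnt and beta-catenin, 16 were tested, and none passed in the 5-pair, medium or interaction comparisons. Their median difference was 0.25 in the 5 pairs (11 of 16 above 0) and -0.34 after the medium (5 of 16 above 0), against 0.00 and -0.01 over all genes. Between the lines 7 of the 16 were higher and 5 lower in 10T1/2, where 16.8% of all genes were higher and 15.5% lower. The targets share genes with the listed components, Notum among them, so the counts of the lists are not independent. A gene that is dim in 3T3-L1, as Notum is, can pass the filter through 10T1/2, so its count is no support for a difference of the list. Bmp4, a growth factor, read 407.7 to 1160 in 10T1/2, against 1.2 to 45.3 in 3T3-L1 (5.97 ± 0.76), and Sox9, a cartilage regulator, differed by 1.80 ± 0.23, while Ccnd2 (-1.77 ± 0.22) and Ccn4 (-1.85 ± 0.30) were lower (adjusted p up to 0.00216). The targets thus differed in both directions, as did genes as a whole. In the 5 pairs the smallest p among targets was that of Plaur (0.49 ± 0.11, adjusted p = 0.0841), followed by Fosl1 (0.54 ± 0.14, adjusted p = 0.102) and Ccn5 (-0.94 ± 0.30, adjusted p = 0.15). Bmp4 and Notum exceeded the limit on both lone arrays. Bmp4 read 28.1 (si-Mbd1) and 35.4 (labelled si-Mcaf1), against 1.2, and Notum 18.6 and 10.1, against 2.7. Both comparisons share this si-Ctr array, where both genes were under the filter signal, so the 2 arrays are not independent. The si-Ctr array of 3T3-L1 at 0 hr A read 10.6 for Bmp4 and 2.3 for Notum.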

How the data were processed

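Total RNA was labelled as biotinylated cRNA and hybridised to Affymetrix arrays, per the labels' protocols. For every probe set and array the authors deposited a linear intensity, and in each array the mean, trimmed by 2% at each end, is 100. The background correction was not given in the sources used here, nor were detection calls. Of 45101 probe sets, 64 controls were left out, and 38068 carried 1 symbol in the deposited annotation (1253 several, 5654 none, 62 a date). Symbols matched RefSeq for 33189, a synonym for 2002 and neither for 2877.

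Intensities were taken as log2(intensity + 0.8), 0.8 being the 10th percentile, which understates changes of dim genes, and were quantile normalised because log2 medians of arrays differed by up to 0.65. All fits used limma 3.58.1 (R 4.3.3) over 12402 genes with Benjamini-Hochberg adjustment. The 5-pair fit blocked on line, time and experiment, the medium fit on line and siRNA, and the line fit had siRNA and medium as terms. In simulated data (12402 genes, 200 changed), changes of 1 (log2) were recovered in 82% (5 pairs), 73% (medium) and 70% (lines) of cases. The simulated noise was normal and the change the same in every pair, so these shares need not hold for the measured data. In the measured 5 pairs the adipocyte marker Adipoq differed by 5.50 and still missed the threshold (adjusted p = 0.0508). The letters A and B name shared experiments in the labels: over genes, the A minus B difference of si-Setdb1 correlated with that of si-Ctr (r = 0.43). The number of arrays limits the precision.

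Full statistics are given for members past the threshold, and for up to 12 more per comparison with an unadjusted p under 0.05 and 1 direction in every pair or no overlap after normalisation; for lone arrays, those with a difference of at least 1. Members, lists and rules were chosen with earlier results of these data known.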

Additional observations from a re-analysis of the deposited data

How the results depend on the processing

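Of 774 values of single members under alternative settings, 670 kept their direction and side of the threshold, 80 lost and 17 gained it, and 7 reversed. With the probe sets of a gene averaged, Fzd3 after the medium (-0.0479), Fzd4 (0.31) and Sfrp1 (-0.71) in their line interactions, Sfrp1 on the si-Mbd1 array (0.73), Sfrp5 in the 5 pairs (0.0214) and Wnt7b on the array labelled si-Mcaf1 (-0.43) changed sign. So did the Sfrp1 interaction with a pseudocount of 16 (-0.41). The cause was not tested.

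Members past the threshold after the medium were 2, with 95 genes called in all. They were 5 (459 genes) with the filter at the 60th percentile, 7 (577) with an intensity trend, 6 (398) and 4 (161) with pseudocounts of 16 and 4, and 0 with averaged probe sets (45), with no filter (0) or without any 1 pair (0 and 0 as the lowest and highest, 1 to 13 genes). Between the lines, 10 of the 14 members left by the stricter filter passed, 14 to 19 passed without any 1 array, and 14 (2608 genes, against 4004) with array medians subtracted. Without experiment B and with matched pairs as a replicate block, 16 passed. In the 5 pairs no member passed in any setting, while the count over all genes was 138 and ran from 0 (no filter, or without any 1 pair) and 6 (averaged probe sets) to 246 and 647 (pseudocounts of 4 and 16), 840 (stricter filter) and 871 (trend). In that comparison 40.6% of calls were higher, against 26.4% with array medians subtracted. In 3T3-L1 at 0 hr, 1 member, Frat2, passed with array medians subtracted (41 genes, 85.4% higher, against 2 genes, 100% higher). With the experiment as a replicate block 0 members and 1 gene passed there, and 0 to 5 genes passed in its other settings. Without the replicate block 2 members passed after the medium, Fzd1 and Sfrp1, and Rspo3 did not (adjusted p = 0.102). Interactions called 0 members in every setting, and up to 23 genes (line, siRNA) and 70 (line, medium) with a trend, a pseudocount of 16 or the stricter filter.

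On the si-Mbd1 array 5 members were past the limit (470 genes). The counts were 0 (32) with the stricter filter, 3 against the mean of both si-Ctr arrays, 12 (3518) with no filter, and 0 (28) and 2 (216) with pseudocounts of 16 and 4. Of its calls 57.4% were higher, against 45.1% with the deposited scaling. On the array labelled si-Mcaf1 6 members (553 genes) became 2 (85) with the stricter filter, 13 (3516) with no filter and 2 (102) with a pseudocount of 16, and 331 genes were called with a pseudocount of 4. Signals near the filter, which no detection call qualifies, and single arrays per group limit all of these values.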
